A study of Homo sapiens with 24 samples.

Results

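The response to TGF-beta was measured in 6 human liver cancer cell lines that carried a control siRNA (siCTL): HepG2, Huh7, Huh1, Hep3b, SK-HEP1 and HLE. The 12 libraries were taken by their labels out of 24: 6 came from siCTL cells treated for 24 hours with TGF-beta (2 ng per ml) and 6 from siCTL cells left untreated, 1 of each per line. The other 12 libraries came from these lines after knockdown of SFPQ (siSFPQ), whose protein binds RNA in the nucleus and is studied here for its hold on SMAD4; they enter here as a second measurement of each line, with and without the same TGF-beta treatment. Treated and untreated cells alike carried the control siRNA, so no value here is from untransfected cells. The lines are established tumour lines, each with 1 library per group, and the labels name no separate cultures within a line. The 6 lines are the replicates. The p-value of a mean change weighs that mean against how far the response varied between the lines. Whether the response differed between lines was tested separately.

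TGF-beta is a secreted cytokine that is stored in the matrix in a latent form and, once released, brings type I and type II receptor kinases together. The type I receptor phosphorylates SMAD2 and SMAD3, which join SMAD4 and enter the nucleus, where they act with other transcription factors on genes of the matrix, the cytoskeleton, the cell cycle and the pathway's own inhibitors. In liver epithelium the pathway is known for halting growth and for causing cell death, and in later tumours for a mesenchymal program.

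Values are FPKM (fragment counts divided by transcript length and by library size), the unit the authors deposited. A change is the log2 difference of FPKM + 1 within a line, with TGF-beta minus untreated, which understates the change of low genes; the mean over lines is given with its standard error (SE), and a gene is called where the adjusted p over all 12166 genes tested is under 0.05. The depth of the 12 libraries, estimated from low values, ranged from 0.664 to 1.46 times their median, lowest and highest in the treated SK-HEP1 and HepG2 libraries. In such bulk RNA, fewer cells of a type and less RNA per cell cannot be told apart.

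The liver identity of the lines differed. Of 34 hepatocyte markers (plasma proteins, transporters and metabolic enzymes), 27 were at 1 FPKM or more in untreated HepG2, 26 in Huh7 and 24 in Huh1, but 11 in HLE, 10 in SK-HEP1 and 9 in Hep3b. HLE and SK-HEP1 are known as poorly differentiated lines. Hep3B, by contrast, is known to secrete albumin and alpha-fetoprotein, yet in the libraries labelled Hep3b the albumin gene ALB was at 0.942 FPKM with TGF-beta and 0.951 untreated, and the liver transcription factor HNF4A at 0.790 and 0.446 FPKM. The alpha-fetoprotein gene AFP was at 13.3 FPKM with TGF-beta and 12.7 untreated there, against 7857 and 8400.3 FPKM in Huh7. The libraries labelled Hep3b thus go against what is known of that line; they are called by their label below, and the main counts are also given without them. Of markers of other cells, 0 to 1 of 9 endothelial, 2 to 3 of 9 immune, 4 to 6 of 7 cholangiocyte and 1 to 8 of 11 stellate and fibroblast genes were at 1 FPKM or more in a line, the last count being highest in Hep3b.

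**Figure D1:**
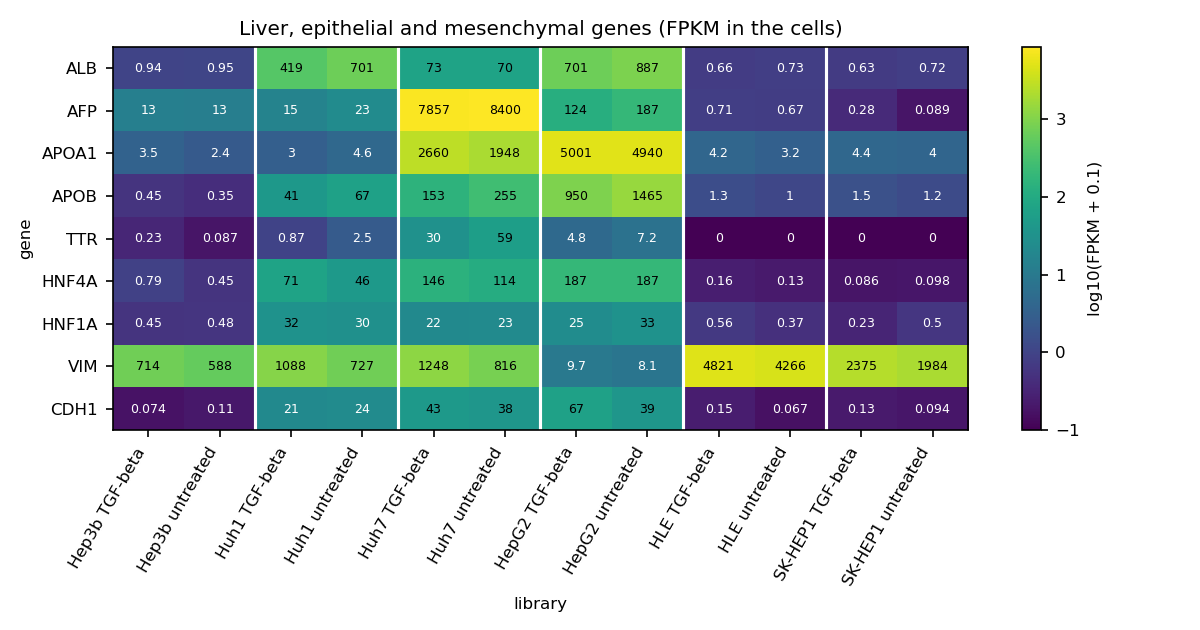
Levels of 9 liver, epithelial and mesenchymal genes in the 12 libraries, as log10(FPKM + 0.1) in colour; for each line the TGF-beta library stands left of the untreated one. HepG2, Huh1 and Huh7 hold high ALB and HNF4A, while Hep3b, HLE and SK-HEP1 are low in both, with ALB at 0.942 FPKM in Hep3b with TGF-beta and 0.951 untreated.

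SFPQ itself, the gene that the other siRNA targets, was at 84.7 to 248 FPKM in siCTL cells with TGF-beta and 90.4 to 247 FPKM in untreated ones. In untreated siSFPQ cells 9.49% (HLE) to 45.2% (HepG2) of the siCTL level remained. TGF-beta gave SFPQ a mean change of -0.069 (SE 0.038, limma adjusted p = 0.409), and SMAD4, the shared partner of the signalling SMADs, one of 0.031 (SE 0.055, adjusted p = 0.812).

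TGF-beta raised a small set of actin and adhesion genes in every line. Across the 6 lines 12 genes were called, or 0.0986% of the genes tested, with 8 higher (0.0658%) and 4 lower (0.0329%). Each of the 12 had the same direction in 6 of 6 lines. The 8 that rose were TAGLN, PDLIM7, TPM1, ITGA5, TPM4, MEX3B, GABARAPL1 and PDXK; the 4 that fell were TMEM160, ENO1-AS1, UGCG and MCCC1. The calls were few and depended on which lines took part. With Hep3b left out 17 genes were called, 16 higher and 1 lower, and only 8 of the 12 were among them. By limma 0 were called without Huh1, HepG2 or HLE (1349, 1309 and 1746 genes at an unadjusted p under 0.05). Without Huh7 or without SK-HEP1, 1 was called. With FPKM scaled to the same sum in every library, TAGLN alone was called.

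TAGLN encodes transgelin, a smooth-muscle protein that binds actin filaments. It stood at 48.7 FPKM with TGF-beta against 18.7 FPKM untreated in Hep3b, 44.7 against 18.8 in Huh1, 336 against 80.7 in Huh7, 435 against 164 in HepG2, 65.9 against 24.1 in HLE and 94.6 against 49.1 in SK-HEP1. Treated HepG2 was the highest library. The lines started from levels far apart and the groups overlapped, but within every line the treated library was higher. The mean change was 1.39 (SE 0.12, adjusted p = 0.0156), and the changes were 1.34 in Hep3b, 1.21 in Huh1, 2.05 in Huh7, 1.41 in HepG2, 1.42 in HLE and 0.93 in SK-HEP1. TAGLN was also 1 of 2 called genes whose size of response differed between lines (moderated F test of line by TGF-beta over all 24 libraries, adjusted p = 0.00826); TPM1 was the other (adjusted p = 0.00854).

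The tropomyosins, which lie along actin filaments and set their stability, rose next to it. TPM1 had 104, 277 and 1797 FPKM (lowest, median and highest) with TGF-beta, against 57.3, 146 and 972 FPKM untreated, a mean change of 0.80 (SE 0.091, adjusted p = 0.0422), from 0.49 in Hep3b to 1.15 in HLE. TPM4 had 57.8, 84.0 and 181 FPKM (lowest, median and highest) with TGF-beta, against 46.5, 56.3 and 145 FPKM untreated and rose by 0.46 (SE 0.055, adjusted p = 0.0422). The groups overlapped for both genes, while treatment stood above no treatment within each of the 6 lines. PDLIM7, a PDZ and LIM scaffold of actin fibres also called enigma, had 65.9, 152 and 230.2 FPKM (lowest, median and highest) with TGF-beta, against 31.6, 81.7 and 114 FPKM untreated. It rose by 0.85 (SE 0.10, adjusted p = 0.0422), most in Huh1 (1.16) and Huh7 (1.16) and least in SK-HEP1 (0.49). ITGA5, the alpha chain of the fibronectin receptor, had 2.99, 74.6 and 176 FPKM (lowest, median and highest) with TGF-beta, against 1.64, 46.6 and 107 FPKM untreated and rose by 0.55 (SE 0.072, adjusted p = 0.0429). Its changes lay between 0.28 in Hep3b and 0.82 in Huh1.

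The other genes that rose were MEX3B, GABARAPL1 and PDXK. MEX3B, an RNA-binding ubiquitin ligase, had 1.83, 3.39 and 5.62 FPKM (lowest, median and highest) with TGF-beta, against 1.08, 2.14 and 3.72 FPKM untreated and rose by 0.46 (SE 0.059, adjusted p = 0.0422). GABARAPL1, an ATG8-family protein of autophagosome membranes, had 23.6, 42.2 and 225 FPKM (lowest, median and highest) with TGF-beta, against 18.2, 32.2 and 169.9 FPKM untreated and rose by 0.36 (SE 0.045, adjusted p = 0.0422). PDXK, the kinase that makes the active form of vitamin B6, had 19.2, 26.3 and 66.7 FPKM (lowest, median and highest) with TGF-beta, against 14.9, 20.9 and 54.0 FPKM untreated and rose by 0.33 (SE 0.041, adjusted p = 0.0422). PDXK was the most even of the 3, with changes from 0.25 in HepG2 to 0.40 in Huh1, and for all 3 the treated and untreated ranges overlapped.

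Among the genes that fell, UGCG makes glucosylceramide, the first step from ceramide to most glycosphingolipids. It had 6.78, 19.7 and 123 FPKM (lowest, median and highest) with TGF-beta, against 8.08, 26.6 and 162 FPKM untreated and fell by 0.37 on the log2 scale (SE 0.047, adjusted p = 0.0422), least in Hep3b (-0.22) and most in HLE (-0.47). MCCC1, a subunit of the mitochondrial carboxylase that breaks down leucine, had 2.89, 7.64 and 19.6 FPKM (lowest, median and highest) with TGF-beta, against 3.85, 10.1 and 24.6 FPKM untreated and fell by 0.36 (SE 0.047, adjusted p = 0.0429). TMEM160, a small membrane protein, had 24.5, 41.5 and 68.9 FPKM (lowest, median and highest) with TGF-beta, against 39.3, 67.4 and 99.6 FPKM untreated and fell by 0.60 (SE 0.074, adjusted p = 0.0422). TMEM160 went the other way in siSFPQ cells, where its change was 0.54 (adjusted p = 0.0412); the siRNA by TGF-beta test gave a difference of 1.14, siSFPQ minus siCTL (SE 0.096, adjusted p = 0.00199). ENO1-AS1, listed as antisense to the glycolysis gene ENO1, had 0.302, 0.882 and 1.64 FPKM (lowest, median and highest) with TGF-beta, against 1.16, 1.49 and 2.85 FPKM untreated and fell by 0.59 (SE 0.080, adjusted p = 0.0497), but the labels do not say whether strand was kept, so its reads and those of ENO1 cannot be told apart. UGCG and MCCC1 were also called lower in siSFPQ cells, and all 8 genes that rose were called higher there. So 10 of the 12 calls were made in the same direction in both comparisons. Over all genes tested in siSFPQ cells, 610 of 11886 (5.13%) were called in either direction. The comparisons share no library but have the same cell lines, so the siSFPQ cells are not a separate set of replicates.

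**Figure D2:**
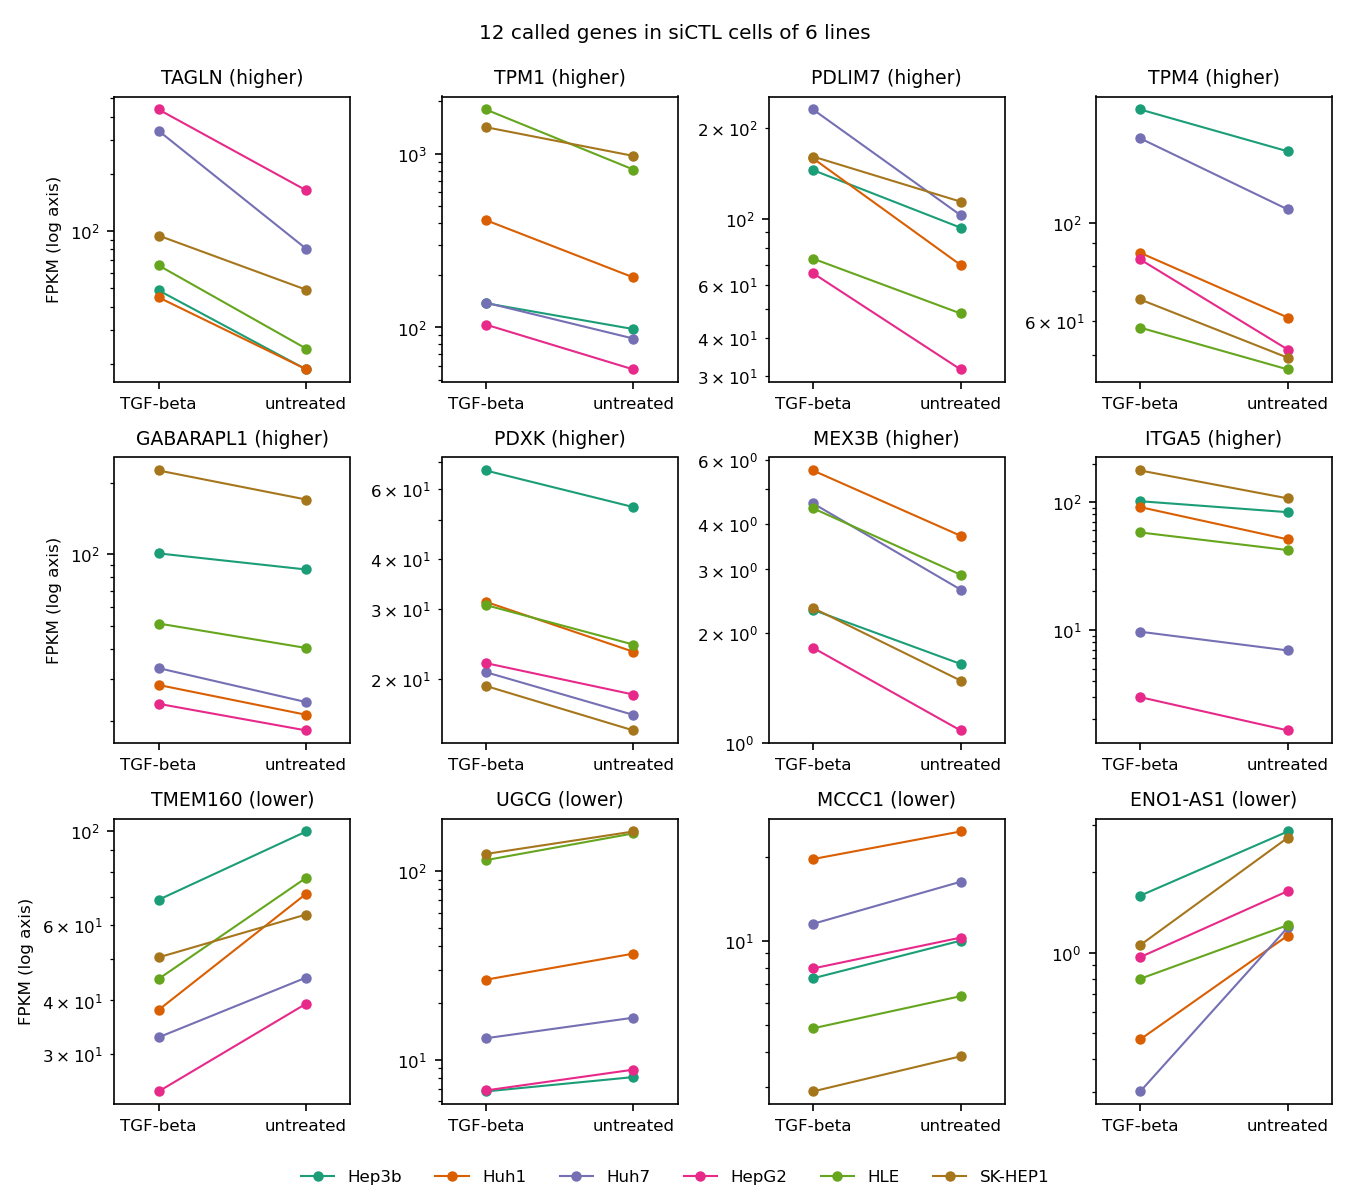
FPKM of the 12 called genes in each line (log axis), with the TGF-beta library left and the untreated library right and a line joining the 2 libraries of a cell line. Every line joining a pair slopes down to the right for the 8 genes that rose, TAGLN among them with a mean change of 1.39, and up to the right for the 4 that fell.

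Promoter sequences of called genes are shown to let the short motifs that SMADs, AP-1, TEAD factors and serum response factor are known to bind be seen in place. The RefSeq promoter table (build GRCh38.p14, 250 bases before to 50 after each start) held 11 of the 12 called genes; TAGLN is named only. Both strands were searched for CAGAC, known as the core site of SMAD3 and SMAD4, for TGANTCA (AP-1), for GGAATG (TEAD) and for the CArG box of serum response factor. Capitals mark a match, on either strand, in 3 genes that rose. The ITGA5 window, chr12:54419217-54419516 on the minus strand, holds the SMAD core, TEAD and AP-1 motifs, which begin 190, 82 and 6 bases upstream of the start. The first TPM4 start, chr19:16067288-16067587 on the plus strand, holds a CArG box 173 bases upstream, and TPM1, chr15:63048239-63048538 on the plus strand, a CAGAC on the other strand, printed as GTCTG, 101 bases upstream.
ITGA5: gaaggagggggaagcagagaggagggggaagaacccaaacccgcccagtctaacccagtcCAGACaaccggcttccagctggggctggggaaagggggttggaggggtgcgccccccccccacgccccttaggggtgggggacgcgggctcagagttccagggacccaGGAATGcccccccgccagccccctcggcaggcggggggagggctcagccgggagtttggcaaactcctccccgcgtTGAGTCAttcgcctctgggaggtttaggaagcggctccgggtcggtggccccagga
TPM4: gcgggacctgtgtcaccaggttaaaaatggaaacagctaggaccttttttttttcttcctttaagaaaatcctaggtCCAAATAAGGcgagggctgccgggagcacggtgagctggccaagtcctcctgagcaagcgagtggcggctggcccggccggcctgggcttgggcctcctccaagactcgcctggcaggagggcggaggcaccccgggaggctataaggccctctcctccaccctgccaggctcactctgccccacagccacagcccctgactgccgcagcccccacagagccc
TPM1: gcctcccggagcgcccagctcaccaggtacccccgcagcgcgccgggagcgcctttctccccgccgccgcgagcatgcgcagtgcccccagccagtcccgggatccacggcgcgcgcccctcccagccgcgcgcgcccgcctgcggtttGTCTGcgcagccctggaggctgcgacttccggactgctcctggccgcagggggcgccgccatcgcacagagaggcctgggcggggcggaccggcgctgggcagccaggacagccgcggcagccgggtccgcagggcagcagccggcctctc
Of the 11 genes with a promoter, 6 held CAGAC, 4 GGAATG, 1 TGANTCA and 1 a CArG box, in any of their windows. TPM4, MCCC1 and PDXK had more than 1 window, so this count by gene is in another unit than the share of promoters that follows. Of all 35116 promoters in the table, 45.3% held CAGAC, 14.0% GGAATG, 7.71% TGANTCA and 1.29% a CArG box, so CAGAC in particular is a common match, and a match describes letters and not binding.

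The size of the response differed widely between lines. At least 2-fold higher (a log2 difference of 1 or more, with no test, since each line has 1 library per group) were 172 genes in Huh7, 1.41% of those tested, 114 in HepG2 (0.937%), 68 in HLE (0.559%), 51 in Huh1 (0.419%), 30 in SK-HEP1 (0.247%) and 12 in Hep3b (0.0986%). At least 2-fold lower were 41 genes in Huh7 (0.337%), 37 in HLE (0.304%), 21 in SK-HEP1 (0.173%), 18 in HepG2 (0.148%), 11 in Hep3b (0.0904%) and 9 in Huh1 (0.074%). Few genes reached 2-fold in several lines: 312 were 2-fold higher in at least 1 line, 93 in at least 2, 32 in at least 3, 8 in at least 4, 2 in at least 5 and 0 in 6. The genes 2-fold higher in at least 4 lines were COL1A1, PMEPA1, TAGLN, IL11, RRAD, FSTL3, PDGFA and LOC728643, of which TAGLN alone was called. No gene was 2-fold lower in more than 2 lines.

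The siSFPQ cells of a line gave a second measurement with no shared library. Their depth was less even, from 0.356 (treated Huh7) to 1.75 (treated Hep3b) times the median of the 12 siCTL libraries. In HepG2 it was 1.19 in treated and 0.398 in untreated siSFPQ cells. The part of depth in the shares below was not tested. The share repeated was larger for genes 2-fold higher than for genes 2-fold lower in each line but Huh1, a difference that was not tested. Of the genes 2-fold higher in siCTL cells of a line, the siSFPQ cells of the same line were also at least 2-fold higher for 130 of 172 in Huh7, 92 of 114 in HepG2, 57 of 68 in HLE, 43 of 51 in Huh1, 20 of 30 in SK-HEP1 and 6 of 12 in Hep3b. Of the genes 2-fold lower, the siSFPQ cells were also at least 2-fold lower for 14 of 41 in Huh7, 9 of 18 in HepG2, 27 of 37 in HLE, 8 of 9 in Huh1, 8 of 21 in SK-HEP1 and 2 of 11 in Hep3b. Across the genes tested, the siCTL changes of a line correlated with its own siSFPQ changes at 0.297 in Hep3b and at 0.541 (SK-HEP1) to 0.717 (HepG2) in the others. With the siSFPQ changes of other lines the correlations were 0.0542 to 0.530, and between siCTL cells of different lines -0.000141 to 0.501, with a median of 0.192 over 15 pairs. These correlations are across 12166 genes, which are not independent, and libraries of 1 line share its expression profile. The line by TGF-beta test called 2398 of 13496 genes (17.8%). That test uses the siCTL pairs themselves and takes the siSFPQ pair as the second measurement of each line.

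**Figure D3:**
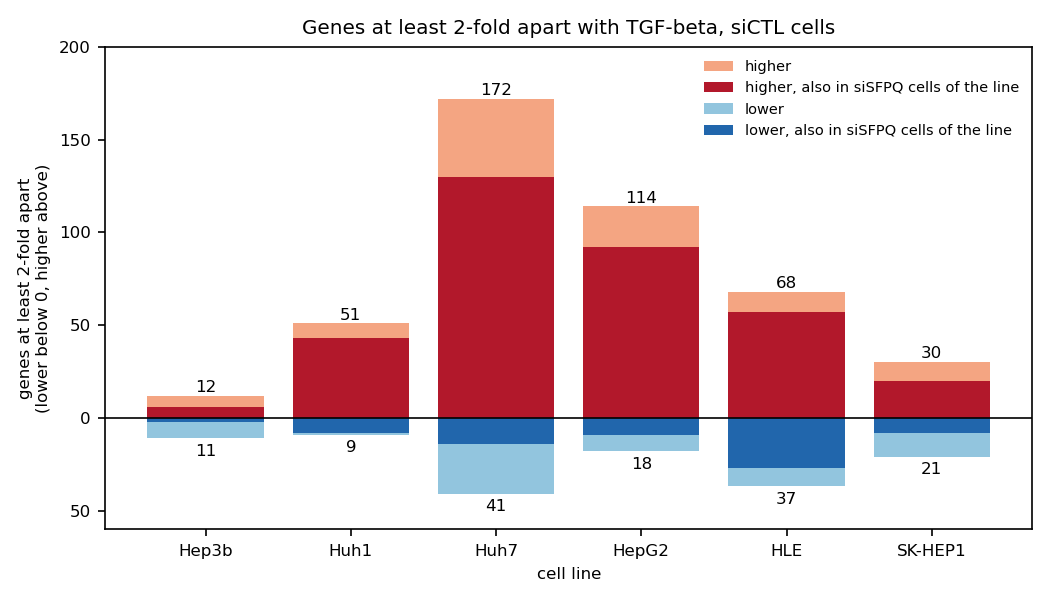
Number of genes at least 2-fold higher (up) and at least 2-fold lower (down) with TGF-beta in siCTL cells of each line, with the part also at least 2-fold apart the same way in the siSFPQ cells of that line in the darker shade. Huh7 has the most of both, 172 higher and 41 lower; Hep3b has 12 and 11, of which 6 and 2 were repeated.

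Among genes called by the line by TGF-beta test, those with the widest range over lines included several matrix and membrane genes highest in Huh7. Their p-values below come from the test that chose them. LOXL4, a lysyl oxidase that cross-links collagen, stood at 0.148 FPKM with TGF-beta against 0.127 FPKM untreated in Hep3b, 23.5 against 13.4 in Huh1, 38.5 against 1.24 in Huh7, 81.6 against 18.2 in HepG2, 1.72 against 0.578 in HLE and 0.649 against 0.457 in SK-HEP1. Its change was 4.14 in Huh7 and 2.11 in HepG2 but 0.026 in Hep3b (line by TGF-beta adjusted p = 1.12e-05). NPNT, nephronectin, a matrix ligand of integrin alpha-8, showed the same pair of lines (line by TGF-beta adjusted p = 3.32e-06). Its changes were -0.18 in Hep3b, 0.042 in Huh1, 3.84 in Huh7, 2.40 in HepG2, 0.015 in HLE and 0.057 in SK-HEP1. Both libraries were near 0 in some of these lines. NPNT was at 0.248 FPKM with TGF-beta against 0.212 untreated in Huh1, 0.0225 against 0.0119 in HLE and 0.0401 against 0 in SK-HEP1. SEMA7A, a membrane-anchored semaphorin, was highest in Huh7 (3.54) and near 0 in Hep3b (0.12) and HLE (0.14). ACOX3, a peroxisomal acyl-CoA oxidase, had 2.91 in Huh7 and 1.70 in HepG2, and CTSH, the lysosomal protease cathepsin H, 2.48 in Huh7 but -0.75 in HLE.

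HLE led another set. ANGPTL4, a secreted inhibitor of lipoprotein lipase, had changes of -0.29 in Hep3b, 1.40 in Huh1, 0.75 in Huh7, 0.51 in HepG2, 3.10 in HLE and 1.45 in SK-HEP1 (line by TGF-beta adjusted p = 0.000343). COL7A1, the collagen of anchoring fibrils, was 3.38 in HLE against 0.028 in Huh7 (adjusted p = 8.05e-05). PMEPA1, a membrane protein that keeps SMAD2 and SMAD3 from the receptor, stood at 32.4 FPKM with TGF-beta against 19.2 FPKM untreated in Hep3b, 26.5 against 3.38 in Huh1, 0.0311 against 0.0173 in Huh7, 2.34 against 0.0709 in HepG2, 19.4 against 1.06 in HLE and 37.6 against 7.91 in SK-HEP1. Its change was 3.31 in HLE, 2.65 in Huh1 and 2.12 in SK-HEP1, but 0.019 in Huh7, the line with the most 2-fold genes, where both libraries were near 0. In siSFPQ cells of Huh7 the change of PMEPA1 was 0.17.

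The median change of the pathway's own inhibitors was above 0 in each line and lowest in Hep3b (0.018). Of 14 genes that restrain SMAD signalling 13 were measured, 0 were called, and 5 (38.5%) were higher in 6 of 6 lines. Over all genes tested 3.83% were higher and 6.09% lower in every line, the shares to set beside each list below. The lists were chosen with earlier results of these data known, so such counts are descriptions and were not tested. The median change of the 13 was 0.25, against -0.025 over all genes. SMAD7, the inhibitory SMAD that blocks the type I receptor, stood at 19.1 FPKM with TGF-beta against 16.6 FPKM untreated in Hep3b, 19.1 against 14.2 in Huh1, 21.1 against 11.2 in Huh7, 53.3 against 33.2 in HepG2, 17.2 against 2.84 in HLE and 48.3 against 29.7 in SK-HEP1. The treated library was higher in each line, by 2.25 in HLE and by 0.19 in Hep3b, and the mean of 0.84 (SE 0.23, adjusted p = 0.15) missed the threshold while the difference between lines passed (adjusted p = 0.000179). SKIL, a co-repressor bound by SMADs, had 1.05 (SE 0.23, adjusted p = 0.105), again with HLE highest (2.14) and Hep3b lowest (0.084), and SMURF1, a ubiquitin ligase for receptors and SMADs, 0.33 (SE 0.076, adjusted p = 0.116).

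Among ligands and the proteins that hold or free them, 15 of 20 were measured and 0 were called. Higher in 6 of 6 lines were 7 and lower 1 (46.7% and 6.67%, against 3.83% and 6.09% over all genes). FSTL3, a follistatin-like protein that binds activins, had 33.9, 119 and 207 FPKM (lowest, median and highest) with TGF-beta, against 11.4, 50.9 and 186 FPKM untreated. Its mean change was 1.06 (SE 0.15, adjusted p = 0.0593), at 1 or near it in all lines but Hep3b (0.15). TGFB1, the ligand gene itself, was higher in 6 of 6 lines, with changes of 0.14 in Hep3b, 0.14 in Huh1, 0.90 in Huh7, 1.12 in HepG2, 0.30 in HLE and 0.34 in SK-HEP1 (mean 0.49, adjusted p = 0.151). THBS1, thrombospondin, which can free latent TGF-beta, had 0.60 (adjusted p = 0.13) and LTBP3, which holds it in the matrix, 0.38 (adjusted p = 0.128). INHBE, an activin subunit made in liver, differed between lines (adjusted p = 0.000215), with 1.72 in Huh7 and 1.15 in HepG2 but at most 0.18 in the others.

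Receptors and SMADs showed little mean change. Of 19 genes 15 were measured and 0 were called, and the median change was 0.031. In 6 of 6 lines 0 were higher and 2 lower (13.3%, against 6.09% lower over all genes). The 2 lower ones were TGFBR3, the co-receptor betaglycan (-0.38, SE 0.083, adjusted p = 0.105), and TGFBR2, the receptor that binds TGF-beta first (-0.20, SE 0.056, adjusted p = 0.156). BMPR2, the type II receptor for bone morphogenetic proteins (BMPs), had 0.61 (SE 0.15, adjusted p = 0.131), higher in 5 of 6 lines. SMAD3, which carries the signal, differed between lines (adjusted p = 0.000415), at 0.85 in Huh7 and 0.59 in HepG2 against -0.37 in SK-HEP1 and -0.34 in Hep3b. Of 8 measured BMP and ID genes (of 14) 0 were called, with a median of -0.31. Lower in 6 of 6 lines were 2 (25%, against 6.09% over all genes). Scaled to a common median ratio, 0 were lower in every line. ID1 and ID3, inhibitors of differentiation that BMPs induce, had -1.08 and -1.18 in Huh7 but 0.053 and 0.27 in Hep3b.

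Genes known as TGF-beta targets were measured for 26 of 30. Of these 1, MEX3B, was called, and the median was 0.44. Higher in 6 of 6 lines were 12 (46.2%, against 3.83% over all genes) and lower 0. Line medians were 0.15 in Hep3b, 0.75 in Huh1, 0.70 in Huh7, 0.47 in HepG2, 0.53 in HLE and 0.57 in SK-HEP1. IL11, a cytokine of the IL-6 family that fibroblasts make on TGF-beta, had 2.01, 4.34 and 134 FPKM (lowest, median and highest) with TGF-beta, against 0.420, 1.86 and 78.2 FPKM untreated. Its change was 1.24 (SE 0.19, adjusted p = 0.0655), above 1 in 4 lines and lowest in HLE (0.53). BHLHE40, a circadian repressor, had 0.66 (SE 0.11, adjusted p = 0.0665), close to 0 in Hep3b (0.063) and at least 0.60 in the other 5. TGFBI, a matrix protein, had 1.17 (SE 0.24, adjusted p = 0.0929) and an order of its own: HLE (2.29) and Hep3b (1.87) were highest. PDGFB, a platelet-derived growth factor chain, and JUNB, an AP-1 subunit, had 1.15 (adjusted p = 0.0929) and 1.26 (adjusted p = 0.146), both highest in Huh7 (2.18 and 2.77). NRP2, a co-receptor for semaphorins and VEGF, had 1.17 (SE 0.28, adjusted p = 0.121), from 0.15 in Hep3b to 2.73 in Huh7.

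Several actin cytoskeleton genes beyond the called ones were also higher in every line. Of 35 genes 34 were measured, 4 rose (TAGLN, TPM1, PDLIM7 and TPM4), and the median was 0.26. In 6 of 6 lines 17 were higher and 1 lower (50% and 2.94%, against 3.83% and 6.09% over all genes). Line medians were 0.15 in Hep3b, 0.29 in Huh1, 0.34 in Huh7, 0.31 in HepG2, 0.26 in HLE and 0.24 in SK-HEP1. Single genes were less even: the line by TGF-beta test called 16 of the 34, TAGLN and TPM1 among them, against 17.8% over all genes. ACTG1, cytoplasmic gamma-actin, had 925, 1903 and 2752 FPKM (lowest, median and highest) with TGF-beta, against 723, 1571 and 2449.7 FPKM untreated and a change of 0.31 (SE 0.043, adjusted p = 0.0546). MYL9, a myosin light chain of contractile cells, had 0.62 (SE 0.098, adjusted p = 0.0655), TAGLN2, a relative of transgelin, 0.62 (SE 0.10, adjusted p = 0.0683), and CALD1, caldesmon, 0.47 (adjusted p = 0.0929), each higher in 6 of 6 lines. MKL1, the actin-sensing partner of serum response factor, had 0.56 (adjusted p = 0.105). The 1 gene lower in every line was MYH10, a nonmuscle myosin heavy chain (-0.12, adjusted p = 0.233).

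Integrins and focal adhesion genes had 24 of 26 measured, 1 that rose (ITGA5) and a median of 0.27. Higher in 6 of 6 lines were 9 (37.5%, against 3.83% over all genes) and lower 0. ITGAV, the alpha-v chain of receptors that can free latent TGF-beta, had 23.0, 86.3 and 177 FPKM (lowest, median and highest) with TGF-beta, against 13.5, 42.7 and 128 FPKM untreated and a change of 0.68 (SE 0.11, adjusted p = 0.0655). ZYX, the focal adhesion protein zyxin, had 0.51 (SE 0.077, adjusted p = 0.0655), highest in Huh7 (0.89). TNS1, tensin, which ties integrins to actin, differed between lines (adjusted p = 5.87e-05): it was 2.29 in Huh7 and 1.89 in HepG2, 0.85 in Huh1 and -0.22 to 0.12 in the others.

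Of 30 collagens and matrix genes 24 were measured, 0 were called and the median was 0.26. In 6 of 6 lines 7 were higher (29.2%, against 3.83% over all genes) and 0 lower. The line by TGF-beta test called 17 of the 24, against 17.8% over all genes. It likewise called 15 of 24 integrin and focal adhesion genes, 16 of 26 target genes and 9 of 13 feedback inhibitors, and whether the lists differ in this share was not tested. COL1A1, the alpha-1 chain of type I collagen, stood at 20.0 FPKM with TGF-beta against 15.5 FPKM untreated in Hep3b, 5.69 against 0.896 in Huh1, 27.6 against 0.658 in Huh7, 2.12 against 0.135 in HepG2, 14.6 against 2.70 in HLE and 43.5 against 7.04 in SK-HEP1. Its mean change was the largest of the genes higher in every line, 2.05 (SE 0.39, adjusted p = 0.0849), from 0.35 in Hep3b to 4.11 in Huh7. COL1A1 is also a marker of stellate cells and fibroblasts. The summed FPKM of the 11 such markers was 47.5 to 226 with TGF-beta and 41.5 to 162 untreated over the lines, but the set was uneven: DCN, the fibroblast proteoglycan decorin, was at 14.8 and 14.5 FPKM in Hep3b with TGF-beta and untreated, and at most 0.0511 FPKM in untreated Huh7, HepG2, HLE or SK-HEP1. The part of such markers in the result was not tested. COL5A1 was 2.71 in HLE and 1.56 in SK-HEP1 but 0.086 in Huh1 (adjusted p = 0.000201), and FN1, fibronectin, 1.38 in HLE and -0.059 in Huh1 (adjusted p = 0.0311). MATN3, matrilin 3, had the smallest p of the list, with 0.55 (SE 0.10, adjusted p = 0.0828).

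Of the genes that make and trim collagen, 16 of 17 were measured and 0 were called. Higher in 6 of 6 lines were 4 and lower 1 (25% and 6.25%, against 3.83% and 6.09% over all genes). LARP6, which binds collagen mRNAs, had 0.59 (SE 0.10, adjusted p = 0.0828), P4HA2, a prolyl hydroxylase, 0.29 (SE 0.057, adjusted p = 0.0887), and PLOD2, a lysyl hydroxylase, 0.43 (SE 0.12, adjusted p = 0.151). Matrix proteases and their inhibitors had 17 of 23 measured and 0 called. In 6 of 6 lines 3 were higher (17.6%, against 3.83% over all genes) and 0 lower. SERPINE2, a protease inhibitor also called nexin 1, had 0.73 (SE 0.15, adjusted p = 0.0929). MMP2, gelatinase A, was 2.13 in Huh1 and 1.73 in HLE (line by TGF-beta adjusted p = 0.00226). In Huh7 MMP2 was 0.065, where the libraries were at 0.0461 FPKM with TGF-beta and 0 untreated. PLAU, urokinase, had values on both sides of 0, with 0.91 in HLE and -1.41 in Huh7 (adjusted p = 0.00013).

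Of 13 regulators and mesenchymal markers of the epithelial to mesenchymal switch 9 were measured, 0 were called, 1 was higher in 6 of 6 lines (11.1%, against 3.83% higher and 6.09% lower over all genes) and the median was 0.0099. The 1 was VIM, vimentin, with 9.66, 1168 and 4821 FPKM (lowest, median and highest) with TGF-beta, against 8.08, 772 and 4266 FPKM untreated and a change of 0.36 (SE 0.065, adjusted p = 0.0828). CDH2, N-cadherin, had 0.44 (adjusted p = 0.146), and the repressors ZEB1 and ZEB2 0.12 (adjusted p = 0.372) and -0.21 (adjusted p = 0.296). SNAI1, the repressor Snail, was 1.59 in SK-HEP1 and 0.78 in Huh1 but -0.64 in Huh7. Among 23 measured epithelial junction and keratin genes (of 26) 0 were called, and the median was -0.015. Higher in 6 of 6 lines was 1 (4.35%, near the 3.83% over all genes) and lower 0. The epithelial genes with the smallest p were on the higher side, CLDN4, a claudin (0.42, adjusted p = 0.135), and KRT8, a simple-epithelium keratin (0.27, adjusted p = 0.233).

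**Figure D4:**
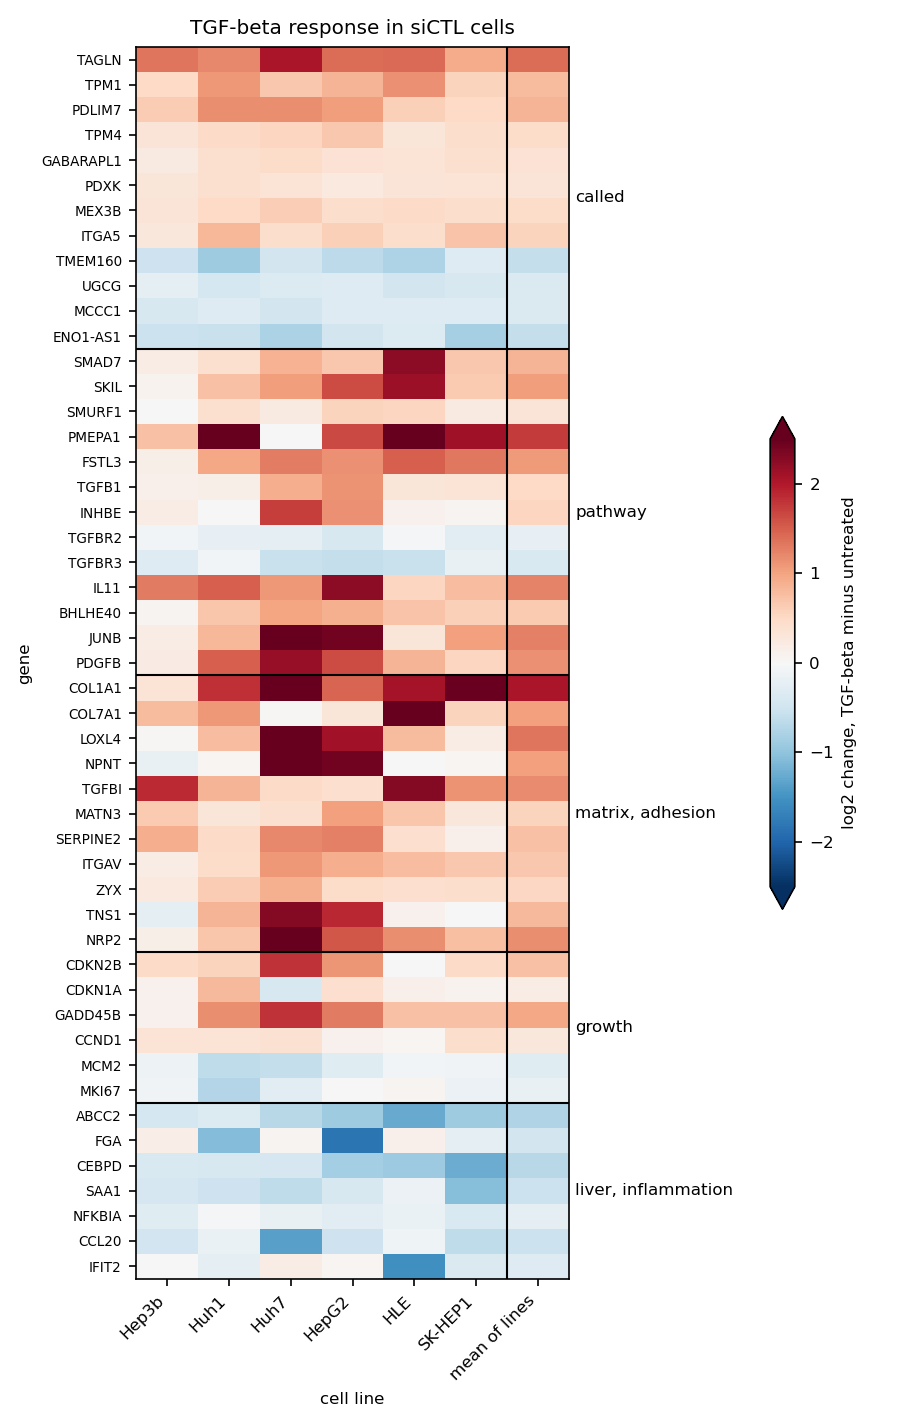
Log2 change with TGF-beta in siCTL cells (colour) of 49 named genes in the 6 lines and as the mean over lines, grouped as called genes, pathway genes, matrix and adhesion genes, growth genes, and liver and inflammatory genes. Called genes have 1 colour across their row; LOXL4 and NPNT stand out in Huh7 and HepG2, and PMEPA1 in every line but Huh7 (0.019).

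Growth genes differed between lines. Of 15 genes of the cytostatic program 14 were measured, 0 were called, 1 was higher and 1 lower in 6 of 6 lines. Each was 7.14% of the list, against 3.83% higher and 6.09% lower over all genes. CDKN2B encodes the CDK inhibitor p15, a textbook target of the pathway, and stood at 11.5 FPKM with TGF-beta against 7.93 FPKM untreated in Hep3b, 47.2 against 31.9 in Huh1, 29.8 against 7.81 in Huh7, 2.98 against 0.859 in HepG2, 0.0132 against 0.0140 in HLE and 3.17 against 2.00 in SK-HEP1. Its change was highest in Huh7 (1.80) and HepG2 (1.10) and was near 0 in HLE, where both libraries were also listed near 0 FPKM. The mean was 0.73 (SE 0.20, adjusted p = 0.15). CDKN1A, which encodes the CDK inhibitor p21, was 0.82 in Huh1 and 0.43 in HepG2 but -0.41 in Huh7 (mean 0.19, SE 0.13, adjusted p = 0.481; line by TGF-beta adjusted p = 0.00142). GADD45B, a stress gene that feeds p38 signalling, was the 1 higher in every line, at 0.97 (SE 0.18, adjusted p = 0.0849), lowest in Hep3b (0.10).

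The genes of DNA replication had no call among 31 measured of 31, with 1 higher and 4 lower in 6 of 6 lines. These were 3.23% and 12.9%, against 3.83% and 6.09% over all genes. Their median change by line was 0.10 in Hep3b, -0.59 in Huh1, -0.37 in Huh7, -0.13 in HepG2, 0.085 in HLE and -0.023 in SK-HEP1, so that Huh1 and Huh7 stood below the others and Hep3b and HLE on the other side of 0. The line by TGF-beta test called 21 of the 31, against 17.8% over all genes. MCM2, a subunit of the replicative helicase, had -0.12 in Hep3b, -0.63 in Huh1, -0.60 in Huh7, -0.30 in HepG2, -0.065 in HLE and -0.080 in SK-HEP1, and CDT1, which loads that helicase, -0.89 in Huh1 against -0.079 in Hep3b. CCND1, cyclin D1, was the 1 higher in every line, at 0.28 (SE 0.060, adjusted p = 0.105). The 30 genes of mitosis, all measured and none called, had 0 higher and 0 lower in 6 of 6 lines, with line medians of 0.16 in Hep3b, -0.53 in Huh1, -0.18 in Huh7, -0.039 in HepG2, 0.041 in HLE and -0.037 in SK-HEP1. MKI67, a marker of cycling cells, was -0.73 in Huh1 and 0.062 in HLE (line by TGF-beta adjusted p = 0.00264). For apoptosis, 15 of 16 genes were measured and 0 called. BMF, a death-promoting BCL2 relative, was 2.08 in Huh7 and 1.97 in HepG2 (line by TGF-beta adjusted p = 0.00513). In HLE BMF was -0.17, with low levels of 0.260 FPKM with TGF-beta and 0.416 untreated. DAPK1, a death-associated kinase, was lower in 6 of 6 lines (-0.28, adjusted p = 0.141).

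Several inflammatory and acute phase genes were lower in every line. Of 24 such genes 22 were measured and 0 were called, and the median was -0.22. In 6 of 6 lines 0 were higher and 7 lower (31.8%, against 6.09% lower over all genes). The 7 were SAA1 and SAA2, acute phase amyloid proteins, the chemokines CCL20 and CXCL1, the NF-kB inhibitor NFKBIA, the NF-kB target BIRC3 and complement C3. SAA1 had 0, 1.32 and 11.9 FPKM (lowest, median and highest) with TGF-beta, against 0.316, 2.01 and 19.2 FPKM untreated, where 0 means that a library lists it at 0, and a change of -0.53 (SE 0.11, adjusted p = 0.0929). NFKBIA had -0.23 (SE 0.051, adjusted p = 0.11), BIRC3 -0.44 (SE 0.10, adjusted p = 0.116) and CCL20 -0.54 (SE 0.15, adjusted p = 0.145), the last most negative in Huh7 (-1.36). With FPKM scaled to a common median ratio, 7 of 22 were again lower in every line. CEBPD, a transcription factor of the acute phase, had 9.01, 21.8 and 148 FPKM (lowest, median and highest) with TGF-beta, against 17.9, 33.4 and 197 FPKM untreated and a change of -0.70 (SE 0.12, adjusted p = 0.0665), lower in 6 of 6 lines. Interferon-stimulated genes, 21 measured of 25, had 0 called and 0 with 1 sign in all lines, but HLE stood apart with a median of -0.45: IFIT2 and IFIT3, antiviral RNA-binding proteins, were -1.53 and -1.29 there and 0.18 and -0.15 in Huh7.

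The median change of liver-specific genes with TGF-beta was more negative in Huh1 and HepG2 than in Huh7. In the remaining lines fewer of these genes were expressed. Of the 34 hepatocyte markers 21 passed the filter and 0 were called. In 6 of 6 lines 0 were higher and 1 was lower (4.76%, against 6.09% lower over all genes). That 1 was ABCC2, the bile canalicular exporter of conjugates, with 6.24, 25.0 and 152 FPKM (lowest, median and highest) with TGF-beta, against 10.7, 44.7 and 193 FPKM untreated. Its mean change was -0.75 (SE 0.11, adjusted p = 0.0637), most negative in HLE (-1.27). The median of the 21 by line was 0.027 in Hep3b, -0.48 in Huh1, 0.046 in Huh7, -0.37 in HepG2, 0.089 in HLE and 0.14 in SK-HEP1. In untreated Hep3b, HLE and SK-HEP1 only 9, 11 and 10 of the 34 markers were at 1 FPKM or more, against 26 in Huh7. The scale understates changes of low genes, so the medians of Hep3b, HLE and SK-HEP1 cannot be set beside the others. The fibrinogen chains FGA and FGG were -1.82 and -1.74 in HepG2 and -1.09 and -1.27 in Huh1, but 0.071 and -0.072 in Huh7. ALB was at 419 FPKM with TGF-beta and 701 untreated in Huh1, at 701 and 887 in HepG2 and at 72.8 and 70.5 in Huh7. SERPINA6, which carries cortisol in blood, had -0.58 (SE 0.15, adjusted p = 0.135), lower in 6 of 6 lines.

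Most genes that break down leucine, isoleucine and valine had small negative changes. All 22 genes were measured and 1 fell (MCCC1). In 6 of 6 lines 0 were higher and 6 lower (27.3%, against 6.09% lower over all genes). This list, like the others, was chosen with earlier results of these data known, so the share is a description and was not tested. With a common median ratio 6 of 22 were lower again, and the line by TGF-beta test called 2 of 22, against 17.8% over all genes. The median was -0.14, with line medians of -0.11 in Hep3b, -0.22 in Huh1, -0.17 in Huh7, -0.17 in HepG2, -0.11 in HLE and -0.087 in SK-HEP1. PCCB, a subunit of propionyl-CoA carboxylase, had -0.19 (SE 0.044, adjusted p = 0.108), ALDH6A1, of valine breakdown, -0.35 (SE 0.087, adjusted p = 0.128), and BCAT2, the mitochondrial transaminase that starts the pathway, -0.28 (SE 0.073, adjusted p = 0.135). Of autophagy genes, 25 of 25 genes were measured and 1 rose (GABARAPL1). Higher in 6 of 6 lines were 3 (12%, against 3.83% over all genes) and lower 0. ULK1, the kinase that starts autophagosome formation, had 11.2, 32.5 and 139 FPKM (lowest, median and highest) with TGF-beta, against 6.50, 15.6 and 64.2 FPKM untreated and a change of 0.78 (SE 0.13, adjusted p = 0.0665). Of 23 measured genes of sphingolipid synthesis (of 24), 1 fell (UGCG), and SGPL1, which degrades sphingosine phosphate, was higher in 6 of 6 lines (0.28, adjusted p = 0.105).

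Other genes with large mean decreases in 6 of 6 lines also missed the threshold. ADORA2B, an adenosine receptor, had 1.57, 6.34 and 86.1 FPKM (lowest, median and highest) with TGF-beta, against 2.73, 9.11 and 126 FPKM untreated and a change of -0.64 (SE 0.12, adjusted p = 0.0828), most negative in HLE (-1.32). TXNRD1, thioredoxin reductase, and OSGIN1, both known as targets of the antioxidant factor NRF2, had -0.56 (SE 0.096, adjusted p = 0.0705) and -0.55 (SE 0.14, adjusted p = 0.131). RASL11A, a small GTPase of the RAS family, had -0.61 (SE 0.11, adjusted p = 0.0828) and CITED2, a transcriptional cofactor, -0.52 (SE 0.12, adjusted p = 0.118).

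**Figure D5:**
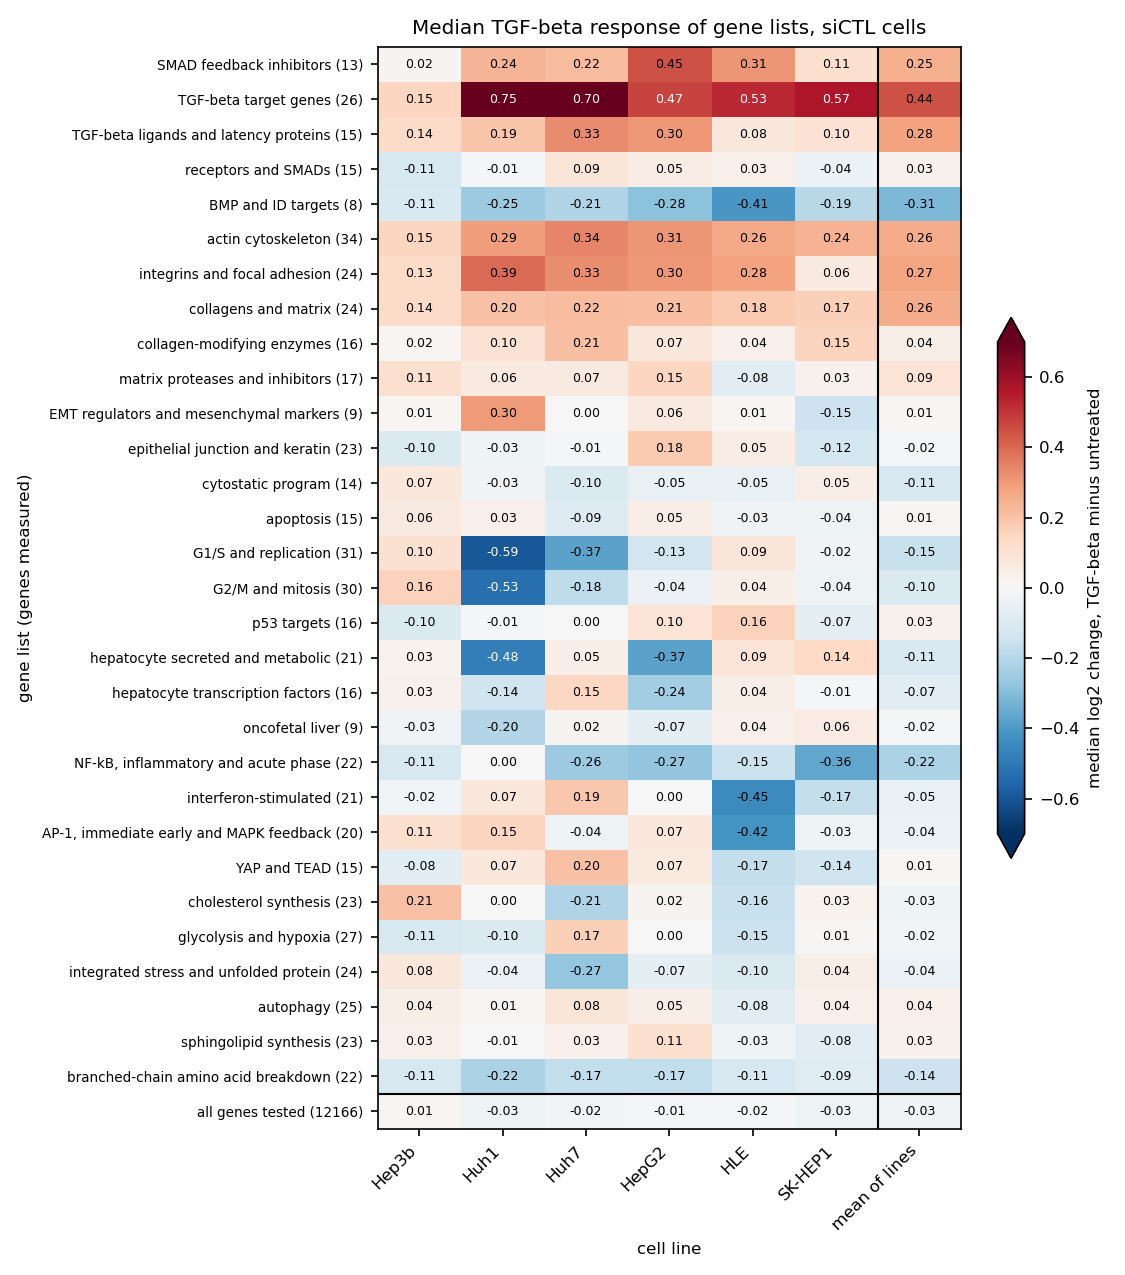
Median log2 change (colour and number) of 30 gene lists and of all genes tested, by line and over the mean of the 6 lines. Target, actin and adhesion lists lie above 0 in each line, replication and mitosis lists lie below 0 most in Huh1 (-0.59 and -0.53), and interferon-stimulated genes in HLE (-0.45).

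The counts in every line depend on the scale and on Hep3b. With a common median ratio 640 genes were higher and 517 lower in 6 of 6 lines, against 466 and 741 as deposited, while the median change of all genes was -0.0029 with that scaling and -0.025 as deposited. Without Hep3b, 689 genes (5.66%) were higher and 1302 (10.7%) lower in 5 of 5 lines; by that count 16 of 26 target genes, 7 of 13 feedback inhibitors, 18 of 34 actin genes and 12 of 24 adhesion genes were higher, and 9 of 22 inflammatory genes, 8 of 31 replication genes and 6 of 22 genes of branched-chain amino acid breakdown lower.

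Set against siSFPQ cells, in which 610 of 11886 genes were called (5.13%), the siRNA by TGF-beta test called 34 of 13496 genes (0.252%), 30 with a more positive response in siSFPQ cells. Among genes described above these were TMEM160, ANGPTL4 (1.15 in siCTL cells and 2.14 in siSFPQ cells, adjusted p of the difference = 0.0197), SKIL (1.05 and 1.65, adjusted p = 0.0333) and PLOD2 (0.43 and 0.96, adjusted p = 0.00608). For TAGLN the 2 responses were 1.36 in siSFPQ cells and 1.39 in siCTL cells, with a difference of -0.026 (SE 0.12, adjusted p = 0.952), and a p above the threshold does not show that they are alike.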

How the data were processed

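RNA of 6 liver cancer cell lines was sequenced with and without TGF-beta (2 ng per ml, 24 hours) after siCTL or siSFPQ. The authors deposited 1 table of FPKM, made with TopHat2 2.1.1 and Cufflinks 2.2.1 on hg19, per the submitters' processing notes; no source used here gives the annotation, the settings or the read counts. The table is named as raw counts, but its values are not whole, so no count model was used. It held 23284 rows and 2 columns without values that belong to no sample. The 1603 rows of short RNAs were left out and values under 1e-06 set to 0. Genes at 1 FPKM or more in at least 6 of the 12 siCTL libraries were tested (12166) on the log2(FPKM + 1) scale, with limma 3.58.1 (R 4.3.3). The fit had cell line as a block and robust shrinkage with a trend, and p-values were adjusted by Benjamini-Hochberg over these genes. Treated and untreated libraries of a line deviated together (r 0.951 to 0.979, against -0.530 to 0.433 between lines), and the labels name the line, so the libraries are paired. The line by TGF-beta and siRNA by TGF-beta tests used all 24 libraries, with 5 residual degrees of freedom. No 2 libraries held identical values.

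The members and lists were chosen with earlier results of these data known. Genes were named by rule. It took SFPQ, SMAD7, SMAD4, CDKN1A and CDKN2B, the called genes, and up to 4 genes of smallest p in each list. It also took the 10 largest rises and 10 largest falls not called with the same sign in every line. Last came the 10 widest ranges over lines among genes that the line by TGF-beta test called. Of the 98 genes with a change given, 17 fall outside this rule and were chosen after their values were seen: ACTG1, BCAT2, CALD1, COL5A1, FGA, FGG, FN1, ID3, INHBE, MKL1, MYH10, MYL9, PLAU, SMAD3, SNAI1, TAGLN2 and TNS1. Some genes the rule takes are not reported here. Alternatives were the pseudocount, the filter, 2 scalings, the fit, the block and leaving out each line. The TGF-beta fit was tested on simulated data of 12089 genes. It called 77.6% of 67 genes changed by 0.5 on the log2 scale, 95.5% of 67 changed by 1 and 91.0% of 67 changed by 2. Of unchanged genes it called 0.0673%. Of the 8 measured genes 2-fold higher in at least 4 lines TAGLN alone was called, and COL1A1 (mean 2.05, SE 0.39) was not. The share called among genes whose response varies between lines was not tested.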

Additional observations from a re-analysis of the deposited data

Results flagged for a closer look

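The sets of 6 line values looked at numbered 130 (98 named genes and the lists with 3 or more measured members). Of these 10 had 1 line far from the other 5 (a gap to the nearest line of over 0.625 of the whole range). Chance flags about 1 in 20 of separate sets not chosen by their values. But COL7A1 and CTSH were named for wide ranges, FN1 was chosen after its values were seen, and lists share genes with the named ones. That rate therefore cannot be set against these 10 sets. HLE was the far line in 7 of them: the changes there were 3.38 for COL7A1, 2.25 for SMAD7, 1.38 for FN1, -1.32 for ADORA2B, -1.53 for IFIT2 and -1.29 for IFIT3, and the median of the AP-1, immediate early and MAPK feedback list was -0.42. Huh7 was the far line for CTSH, with a change of 2.48, for the 5 measured stellate and fibroblast markers, with a median of 1.02, and for the 6 measured cholangiocyte markers, with a median of -0.067.

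The response of TMEM160 differed between siRNAs, with a difference of 1.14, siSFPQ minus siCTL (SE 0.096, limma adjusted p = 0.00199). For 9 genes with wide ranges, the line by TGF-beta test had called a difference between lines. These genes were picked from those it called, so that result was fixed in advance. Their highest and lowest line stood 4.11 apart on the log2 scale for LOXL4, 4.02 for NPNT, 3.76 for COL1A1, 3.41 for SEMA7A, 3.40 for ANGPTL4, 3.36 for COL7A1, 3.29 for PMEPA1, 3.22 for CTSH and 3.05 for ACOX3. The causes of these differences were not tested.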

How the results depend on the processing

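The 12 calls changed with the settings while the directions of the 12 genes did not in any setting run. The count was 38 with genes at 1 FPKM or more in every library, 35 with array weights, 22 with all 24 libraries in 1 fit, and 1 with FPKM scaled to the same sum or with no trend or robust shrinkage. It was 0 with no filter on low values (2199 at an unadjusted p under 0.05) and 0 with no shared spread (1631 unadjusted). With no replicate block, that is, without the pairing by line, it was 0 (11 unadjusted). Leaving out 1 line at a time it ran from 0 to 17. Pseudocounts of 0.1 and 0.5 and a common median ratio gave 10, 12 and 16.

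The line by TGF-beta calls (2398) numbered 1592 with genes at 1 FPKM or more in every library and 1595 to 2113 with 1 line left out. The siRNA by TGF-beta calls (34) numbered 13 at a pseudocount of 0.1, 4 with no filter, 15 with no trend or robust shrinkage, and 8 to 28 with 1 line left out. List medians moved for ligands and latency (0.44) and for collagens and matrix (0.026) with genes at 1 FPKM or more in every library, for BMP and ID genes scaled to the same sum (-0.41), and for cholangiocyte markers at a pseudocount of 0.1 (0.18); the collagen median was 0.20 to 0.30 with 1 line left out. At a pseudocount of 0.1, chosen after seeing the data, the genes 2-fold apart numbered 103 in Hep3b, 162 in Huh1, 428 in Huh7, 279 in HepG2, 226 in HLE and 220 in SK-HEP1, and at 0.5 SK-HEP1 had 90. The mean changed sign for CTSH (-0.15) and SMAD3 (-0.047) without Huh7 and for PLAU without Hep3b (-0.072), Huh1 (-0.12) or HLE (-0.17). The counts in every line with a common median ratio or without Hep3b were also chosen after seeing the data. The causes were not tested. FPKM keep no read counts, so no counting error could be given for low genes.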

Other observations

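The lists of this paragraph held 0 calls. Of 20 measured AP-1, immediate early and MAPK feedback genes 2 were higher and 0 lower in 6 of 6 lines, with a median change of -0.041. Of 15 measured YAP and TEAD targets 0 had the same direction in every line (median 0.0098). Cholesterol synthesis genes, 23 measured, had 1 lower in every line and medians that ran from -0.21 in Huh7 to 0.21 in Hep3b. Of 27 genes of glycolysis and hypoxia 2 were higher and 2 lower in every line, of 24 stress and unfolded protein genes 1 was lower, and of 16 p53 targets 2 were higher and 1 lower. Liver transcription factors, 16 measured, and oncofetal liver genes, 9 measured, had 1 lower each, with medians of -0.071 and -0.015. Over all genes, 3.83% were higher and 6.09% lower in every line.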
